A study of Mus musculus with 13 samples.

Results

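The genes examined here encode the steroid hormone receptors and the progesterone receptor membrane components: Pgr (progesterone receptor), Esr1 and Esr2 (estrogen receptors alpha and beta), Nr3c1 (glucocorticoid receptor), Nr3c2 (mineralocorticoid receptor), Pgrmc1 and Pgrmc2. They were chosen by gene symbol and are 7 of the 55536 genes in the deposited count table. The measurements came from C57BL/6J mice, an inbred laboratory strain, and every animal had been given an adeno-associated virus (serotype 6) once, into the peritoneal cavity, on postnatal day 1. Control females (Con_F, 4 libraries) and control males (Con_M, 3) had the vector without insert (AAV_Con). Females numbered 1, 2 and 4 (PGR_F, 3 libraries) and males (PGR_M, 3) had the vector with the human progesterone receptor (human PR, AAV_PGR), and all ventricles were collected on postnatal day 56. Each library was made from Pcm1(+) nuclei, which are mainly those of cardiomyocytes, sorted from a pool of 3 to 6 whole ventricles, so a library averages several animals. No source used here names the promoter that drives the insert, which has no row of its own in the table.

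Steroid receptors are transcription factors that a hormone switches on. They wait in the cell in complexes with chaperones of the Hsp90 machinery, bind hormone, and then contact DNA through a pair of zinc fingers, of which the first holds the P-box, a short stretch that reads the response element. Heart muscle cells are known to respond to corticosteroids through Nr3c1 and Nr3c2, while Pgr is best known from the uterus, ovary and mammary gland. Pgrmc1 and Pgrmc2 are heme-binding proteins of intracellular membranes, unrelated in sequence to the receptors, with roles in heme transfer and in sterol metabolism.

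The coding sequence of the first zinc finger shows how the receptors fall into 2 families. It is given here for 3 of them, 5′ to 3′ on the coding strand, from GENCODE M21 transcripts (GRCm38), with the 15 bases of the P-box in capitals. The stretches lie at chr9:8903657-8903725 (plus strand), chr10:4746717-4746785 (plus) and chr12:76165471-76165539 (minus), each within 1 exon.
Pgr: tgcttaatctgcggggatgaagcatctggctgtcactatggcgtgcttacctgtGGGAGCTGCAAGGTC
Esr1: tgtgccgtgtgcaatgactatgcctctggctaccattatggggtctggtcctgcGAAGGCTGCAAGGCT
Esr2: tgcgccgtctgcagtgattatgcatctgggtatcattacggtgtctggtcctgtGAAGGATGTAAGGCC
Over these 69 bases Nr3c2 shared 54 with Pgr (78.3%) and Nr3c1 shared 51 (73.9%), and neither is printed. Esr1 shared 41 (59.4%) and Esr2 shared 45 (65.2%) with Pgr, while the 2 estrogen receptors shared 56 with each other (81.2%). Within the P-box, Nr3c2 matched Pgr at 13 of 15 bases, Nr3c1 at 12, Esr1 at 10 and Esr2 at 9. These are matches of bases, which can differ where the encoded amino acids are the same. The fingers were found by searching for P-boxes that encode GSCKV or EGCKA. A split of the P-box into 2 families was thus fixed by the search. At the scale of reads the annotated transcripts are distinct: none of 1 of the 7 genes held a run of 50 bases found in another, and the longest run shared by any pair was 24 bases. Introns, which are also counted, were not compared.

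Library totals ran from 31.8 to 86.3 M counts. The marker checks matched the sort: the summed level of 10 cardiomyocyte markers was 77844 to 97287 CPM (counts scaled to a common library total, with TMM factors), against 25.4 to 101 CPM for 8 fibroblast markers, 23.4 to 55.2 for 8 endothelial markers, 7.29 to 16.4 for 7 macrophage markers and 0.128 to 0.998 for 6 lymphocyte markers. Pcm1 itself averaged 115 to 127 CPM in the 4 groups, which cannot check the sort, since there is no unsorted library to compare with. Xist and Uty followed the labelled sex, and Con_F 4 had Y-linked counts at 1.01% of the male mean against at most 0.112% in the other female libraries. In pools of nuclei a lower count cannot be told apart as less RNA per nucleus or fewer nuclei of a type. The counts cover the whole gene interval, introns included, so unspliced RNA contributes to every value below.

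Counts per length put the corticosteroid receptors first and the progesterone and estrogen receptors last. Over the 13 libraries the mean level was 2.70 CPM per kb of counted interval for Nr3c2, 1.92 for Nr3c1, 0.783 for Pgrmc2, 0.351 for Pgrmc1, 0.00434 for Esr1, 0.00174 for Esr2 and 0.000623 for Pgr. Nr3c2 ranged from 2.25 to 3.45 CPM per kb and Nr3c1 from 1.57 to 2.18, so these neighbours did not overlap, nor did Nr3c1 and Pgrmc2 (0.626 to 0.880) or Pgrmc2 and Pgrmc1 (0.242 to 0.508). Esr1 (0.00253 to 0.00640) lay under all values of Pgrmc1 per kb. In CPM, without division by length, Esr1 (0.997 to 2.52) and Pgrmc1 (1.91 to 3.999) overlapped. The Esr1 interval is 394 kb with 3.47% exonic, and that of Pgrmc1 is 7.9 kb with 23.6% exonic. Their distance per kb thus depends on the length counted. Esr2 (0 to 0.00505) overlapped both Esr1 and Pgr (0 to 0.00201), so the place of Esr2 in this order is not resolved, while all values of Esr1 lay above those of Pgr. Among 16125 genes that passed the filter on low counts, Nr3c2 ranked 1372 and Nr3c1 2166 by level per kb, Pgrmc2 6023, Pgrmc1 9236 and Esr1 15611. Pgr, with 28 counts in all libraries together, and Esr2, with 57, did not pass that filter.

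**Figure D1:**
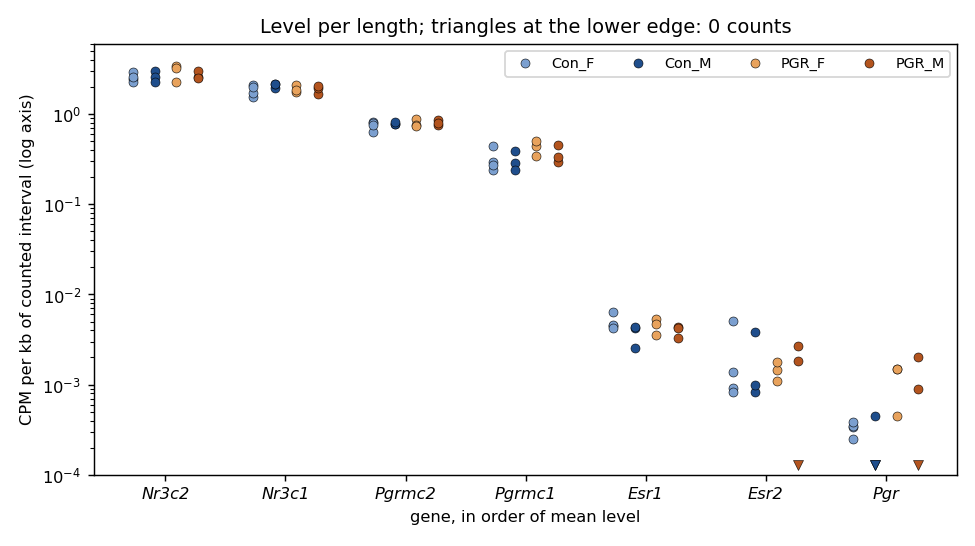
Level of each gene in every library, in CPM per kb of the counted interval on a log axis, with 1 point per library and triangles for libraries with 0 counts. Nr3c2 and Nr3c1 lie between 1.57 and 3.45 CPM per kb, the membrane components under 1, and Esr1, Esr2 and Pgr at or under 0.00640.

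The first question was what the vector with human PR did to the endogenous receptor genes. None of the 5 genes that could be fitted passed the threshold, an adjusted p under 0.05 in edgeR's quasi-likelihood test, in females, in males, averaged over the sexes or in the difference between the sexes. Over all 16125 genes the same rule called 0% in females, 0% in males, 0.0062% averaged (1 gene) and 0% for the difference, so a count of 0 among 5 lies at the background. The averaged count over all genes depended on the libraries, at 338 without Con_F 4 and 34 without PGR_F 4, and 0 of the 5 members passed in either case. At an unadjusted p under 0.05 there was 1 member, Pgrmc1 in the averaged comparison, where 14.8% of all genes lay under that value. Limma-voom and DESeq2 called 0 of the 5 in each of these comparisons. The levels by library are described below in the order of the receptors and then the membrane components.

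**Figure D2:**
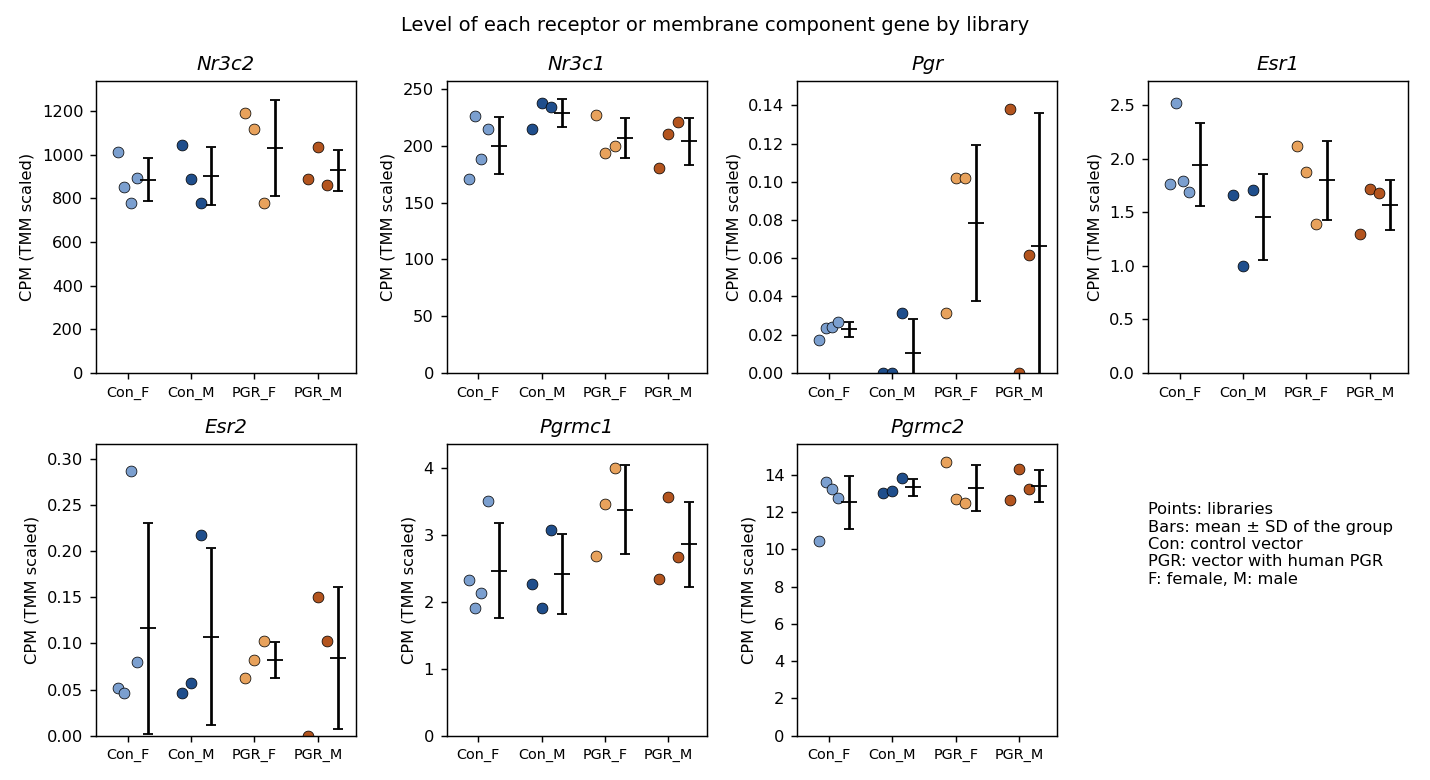
CPM of each gene by library (points) with the mean and SD of each group (bars, ended at 0 where they would run below it), on linear axes that start at 0. The vector groups overlap in every panel except for Pgr in females, where the 3 PGR_F libraries lie at or above 0.0312 CPM and the 4 Con_F libraries at or under 0.0264.

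Pgr (ENSMUSG00000031870, GRCm38 chr9:8899833-8968611, plus strand), the mouse counterpart of the insert, had almost no counts in control hearts. It had 1 count in each of Con_F 1 to 4, and 0, 0 and 1 in Con_M 1 to 3. Under the PGR vector it had 1, 5 and 6 counts in PGR_F 1, 2 and 4, and 8, 0 and 3 in PGR_M 1 to 3. None of the 7 control libraries and 4 of the 6 PGR-vector libraries thus reached 3 counts. In CPM the values were 0.0173, 0.0233, 0.0239 and 0.0264 for Con_F and 0, 0 and 0.0311 for Con_M. For PGR_F they were 0.0312, 0.102 and 0.102, and for PGR_M 0.138, 0 and 0.0616. Females did not overlap, although PGR_F 1 had the same single count as each control and stands higher through its smaller library, and such a separation was seen in 2.81% of the 31462 genes with any count. In males the groups overlapped, since PGR_M 2 had 0 counts, which allows up to 0.0645 CPM (3 counts).

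The mean of Pgr was 0.0175 ± 0.0126 CPM (SD, n = 7) under the control vector and 0.0725 ± 0.0513 (n = 6) under the PGR vector. The difference averaged over the sexes was 0.0559 CPM, with an exact two-sided permutation p of 0.0229 over 700 arrangements of the vector labels within sex. Adjusted over the 6 tests made on Pgr and Esr2 this p was 0.0857 (exact permutation), so the difference did not pass. In females the difference was 0.0557 CPM (exact permutation p = 0.0286, the smallest that 35 arrangements allow) and in males 0.0562 CPM (exact permutation p = 0.4, where 3 against 3 cannot give less than 0.1). Summed over libraries, 23 counts under the PGR vector stood against 5 under the control vector, a ratio of 5.23 per mapped count with an exact 95% interval of 1.95 to 17.6 that covers counting error only. Leaving out 1 library gave an unadjusted exact permutation p from 0.00286 to 0.0514, the latter without Con_M 1 or Con_M 2. The PGR vector itself carries a human transcript of this gene, and reads of the insert and of the mouse gene cannot be told apart here.

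The window before the Pgr start is shown because Pgr is the member whose summed counts had the largest ratio between the vectors. It is taken from RefSeq (GRCm38.p6, chr9:8899583-8899832, plus strand, 250 bases up to the start). Matches to the hexamers GGGCGG (GC box) and TATAAA, at any position and on either strand, are in capitals. The TATAAA match lies on the opposite strand, at the end of the window far from the start, and is not placed as a TATA box.
Pgr promoter: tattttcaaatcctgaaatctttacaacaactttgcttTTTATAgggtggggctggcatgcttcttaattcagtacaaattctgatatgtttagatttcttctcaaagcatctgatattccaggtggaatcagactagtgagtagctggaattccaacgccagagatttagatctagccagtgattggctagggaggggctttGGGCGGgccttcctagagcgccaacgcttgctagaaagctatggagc
Its GC content was 43.6% with 4 CpG, against a median of 52.4% and 6 CpG over 32851 promoter windows. A match to GGGCGG was present in 32.7% of all windows and a match to TATAAA in 12.4%. The steroid receptor core hexamer AGAACA, found in 16.1% of all windows, and the palindrome core ACANNNTGT, found in 5.84%, had no match in this window on either strand.

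Esr1 (ENSMUSG00000019768, chr10:4611593-5005614, plus strand), the estrogen receptor most widely found outside the reproductive tract, was low in every library. It had 1.77, 2.52, 1.79 and 1.69 CPM in Con_F 1 to 4 and 1.67, 0.997 and 1.71 in Con_M 1 to 3. Under the PGR vector it had 2.12, 1.88 and 1.40 CPM in PGR_F 1, 2 and 4 and 1.30, 1.72 and 1.68 in PGR_M 1 to 3. Con_F 2 was the highest library and Con_M 2 the lowest, and the vector groups overlapped in both sexes. The averaged log2 fold change, PGR vector over control vector, was -0.02 (SE 0.16, 95% interval -0.36 to 0.32), which spans a fold of 0.778 to 1.25. It was -0.13 (SE 0.22) in females and 0.08 (SE 0.24) in males.

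Esr2 (ENSMUSG00000021055, chr12:76120419-76177259, minus strand), the other estrogen receptor, was near the detection limit. Control females had 3, 2, 12 and 3 counts and control males 4, 2 and 7. Females with the PGR vector had 2, 4 and 6 counts and such males 0, 7 and 5. The 12 counts of Con_F 3 and the 7 of Con_M 3 were the highest of their groups, at 0.287 and 0.218 CPM, and vector groups overlapped in both sexes. The difference averaged over the sexes was -0.0285 CPM (exact two-sided permutation p = 0.561), and the pooled ratio of 24 to 33 counts was 0.827 with a 95% counting interval of 0.468 to 1.44. A processed pseudogene on the same strand, Gm7862, lies inside Esr2 and had 0 counts.

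Nr3c1 (ENSMUSG00000024431, chr18:39410545-39519421, minus strand) mediates the response to corticosterone, the main glucocorticoid of mice. It had 171, 227, 189 and 215 CPM in Con_F 1 to 4 and 215, 238 and 234 in Con_M 1 to 3. It had 227, 194 and 200 CPM in PGR_F 1, 2 and 4 and 181, 210 and 221 in PGR_M 1 to 3. The lowest library, Con_F 1, and the highest, Con_M 2, were both controls, and 2 of the 3 PGR_M libraries lay under every Con_M library. The averaged log2 fold change was -0.06 (SE 0.08), with a 95% interval of -0.22 to 0.10, or 0.857-fold to 1.07-fold. In males it was -0.17 (SE 0.11, edgeR adjusted p = 0.773) and in females 0.05 (SE 0.10), and the difference between the sexes, 0.21 (SE 0.15), did not pass (edgeR adjusted p = 1.00).

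Nr3c2 (ENSMUSG00000031618, chr8:76899442-77245012, plus strand), the receptor for aldosterone, which also binds corticosterone, had the highest level of the 7 genes, per kb and in CPM, and ranked 121 of 16125 by CPM. It had 1013, 853, 779 and 892 CPM in Con_F 1 to 4 and 1042, 886 and 777 in Con_M 1 to 3. It had 1191, 1117 and 778 CPM in PGR_F 1, 2 and 4 and 888, 1034 and 859 in PGR_M 1 to 3. The 2 highest libraries were PGR_F 1 and PGR_F 2, while PGR_F 4 was at the level of the lowest controls. Con_F averaged 884 ± 98.0 CPM (SD, n = 4) and Con_M 902 ± 133 (n = 3). PGR_F averaged 1029 ± 220 (n = 3) and PGR_M 927 ± 93.6 (n = 3). The log2 fold change was 0.22 (SE 0.14, edgeR adjusted p = 0.605) in females, 0.04 (SE 0.15) in males and 0.13 (SE 0.10, 95% interval -0.09 to 0.35) averaged. Its interval overlaps the long noncoding gene Gm10649 on the opposite strand, which had 8187 counts against 586790 for Nr3c2. Only 1.87% of the Nr3c2 interval is exonic, against 7.06% for Nr3c1, so the 2 levels include intronic signal over unequal shares of length.

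Within a library, the ratio of Nr3c2 to Nr3c1 counts per kb was above 1 in all 13 libraries, from 1.05 in Con_M 3 to 1.87 in Con_F 1. It averaged 1.34 ± 0.276 (SD, n = 7) under the control vector and 1.503 ± 0.236 (n = 6) under the PGR vector, a difference within the SD of either group.

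Pgrmc1 (ENSMUSG00000006373, chrX:36598206-36606079, plus strand) had the largest averaged vector effect of the 5 fitted genes and did not pass. It had 2.32, 1.91, 2.13 and 3.52 CPM in Con_F 1 to 4 and 2.27, 1.91 and 3.08 in Con_M 1 to 3. It had 2.68, 3.47 and 3.999 CPM in PGR_F 1, 2 and 4 and 2.35, 3.57 and 2.67 in PGR_M 1 to 3. The 2 highest libraries were PGR_F 4 and PGR_M 2 and the 2 lowest were controls, but Con_F 4 and Con_M 3 lay among the PGR-vector values, so the groups overlapped in both sexes. Con_F averaged 2.47 ± 0.717 CPM (SD, n = 4) and PGR_F 3.38 ± 0.662 (n = 3). Con_M averaged 2.42 ± 0.600 and PGR_M 2.86 ± 0.634 (n = 3 each). The averaged log2 fold change was 0.36 (SE 0.17, 95% interval 0.00 to 0.71), a fold of 1.28, with an edgeR adjusted p of 0.329, and 14.5% of all tested genes had a smaller p. In females it was 0.47 (SE 0.23, edgeR adjusted p = 0.464) and in males 0.25 (SE 0.24). The difference between the sexes was 0.22 (SE 0.33). Without Con_F 4, the female library with the Y-linked counts, the averaged value was 0.46 (edgeR adjusted p = 0.110). In the averaged comparison the log2 fold change was above 0 for 5 of 8 fibroblast markers (median 0.05), 5 of 8 endothelial markers (median 0.03) and 6 of 6 tested macrophage markers (median 0.14), and the part of other cell types in the Pgrmc1 value was not tested.

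Pgrmc2 (ENSMUSG00000049940, chr3:41066326-41083046, minus strand) was the steadiest of the 5 genes between libraries. It had 10.5, 13.6, 13.3 and 12.7 CPM in Con_F 1 to 4 and 13.02, 13.1 and 13.9 in Con_M 1 to 3. It had 14.7, 12.7 and 12.5 CPM in PGR_F 1, 2 and 4 and 12.7, 14.3 and 13.3 in PGR_M 1 to 3. Apart from Con_F 1 every library lay between 12.5 and 14.7 CPM. The averaged log2 fold change was 0.05 (SE 0.07), and its 95% interval spanned a fold of 0.928 to 1.15. The fitted biological coefficient of variation, the spread between libraries of a group beyond counting error, was 0.101 for Pgrmc2, 0.113 for Nr3c1, 0.143 for Nr3c2, 0.180 for Esr1 and 0.201 for Pgrmc1, with a median of 0.129 over all tested genes. Per kb, Pgrmc2 stood above Pgrmc1 in every library, by a ratio of 1.47 to 3.36.

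**Figure D3:**
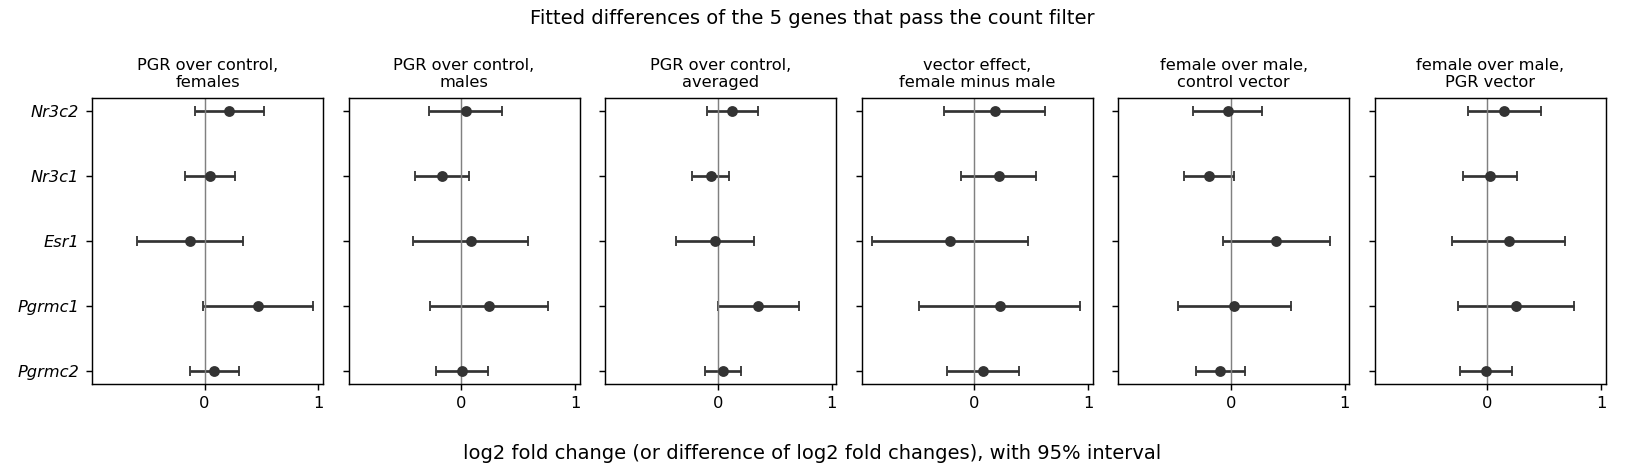
Fitted log2 fold changes with 95% intervals (edgeR) of the 5 genes that passed the count filter, in the 6 comparisons, with 0 marked by a line. All intervals include 0 except that of Pgrmc1 averaged over the sexes, whose lower end is at 0.00, and none of the values passed after adjustment.

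The windows before the starts of the 2 membrane component genes are shown for contrast with that of Pgr. Unlike Pgr, both genes had counts in every library and passed the filter on low counts. Both come from RefSeq (GRCm38.p6, 250 bases, in the direction of transcription), at chrX:36597943-36598192 (plus strand) and chr3:41083047-41083296 (minus strand), with matches to GGGCGG and AGAACA on either strand in capitals.
Pgrmc1 promoter: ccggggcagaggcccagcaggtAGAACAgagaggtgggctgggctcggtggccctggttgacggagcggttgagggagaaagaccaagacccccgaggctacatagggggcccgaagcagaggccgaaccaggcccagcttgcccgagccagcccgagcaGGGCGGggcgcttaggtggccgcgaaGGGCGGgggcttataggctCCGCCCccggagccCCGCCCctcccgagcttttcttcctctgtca
Pgrmc2 promoter: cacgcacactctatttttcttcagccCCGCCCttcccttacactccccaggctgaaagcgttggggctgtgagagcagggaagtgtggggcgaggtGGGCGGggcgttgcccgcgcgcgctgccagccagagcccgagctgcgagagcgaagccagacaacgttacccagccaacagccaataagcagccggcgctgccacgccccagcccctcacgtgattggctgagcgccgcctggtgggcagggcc
The Pgrmc1 window had a GC content of 69.6%, 18 CpG, 4 GC boxes and 1 AGAACA. The Pgrmc2 window had 67.2%, 20 CpG and 2 GC boxes. Neither held a match to TATAAA, the core hexamer AGGTCA or the palindromic estrogen response element, which were present in 12.4%, 14% and 0.0639% of all windows. RefSeq windows were matched for 6 of the 7 genes. The window of Esr2, which did not pass the filter on low counts, had 56.4% GC and 12 CpG. That of Nr3c2 had 68.4% and 17 CpG, and those of Esr1 had 47.6% with 4 CpG and 59.6% with 7. A relation between these windows and the levels was not tested.

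The second question was whether the sexes differed in these genes. Under the control vector 0 of the 5 genes passed, against 0.229% of all tested genes (0.0992% higher and 0.13% lower in females), and under the PGR vector 0 of 5 passed, against 0.143% (0.0806% higher and 0.062% lower). No member had an unadjusted p under 0.05 in edgeR in either comparison, and limma-voom and DESeq2 called 0 of the 5. Esr1 was the member furthest above 0 in controls, with a female over male log2 fold change of 0.40 (SE 0.22, 95% interval -0.07 to 0.87, edgeR adjusted p = 0.478). For Esr1, 3 of the 4 Con_F libraries lay above the highest Con_M library, by a margin of 1.77 against 1.71 CPM for the nearest of them. In the same comparison 8 of 8 fibroblast markers (median log2 fold change 0.85) and 8 of 8 endothelial markers (median 0.61) were above 0. The summed fibroblast markers were 64.5 to 101 CPM in Con_F and 25.4 to 55.2 in Con_M, the endothelial markers 44.0 to 55.2 and 23.4 to 42.4, and Con_M 2 was lowest in both as well as in Esr1. The part of these cell types in the Esr1 value was not tested.

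Nr3c1 lay the other way in controls, at -0.19 (SE 0.10, edgeR adjusted p = 0.468), with 2 of the 4 Con_F libraries under the lowest Con_M library. The remaining log2 values under the control vector were -0.03 (SE 0.14) for Nr3c2, 0.03 (SE 0.23) for Pgrmc1 and -0.09 (SE 0.10) for Pgrmc2. Pgrmc1 lies on the X chromosome, and its female over male fold under the control vector was 1.02 with a 95% interval of 0.726 to 1.44. Under the PGR vector the log2 values were 0.19 (SE 0.23) for Esr1, 0.02 (SE 0.11) for Nr3c1, 0.15 (SE 0.15) for Nr3c2, 0.25 (SE 0.24) for Pgrmc1 and -0.01 (SE 0.11) for Pgrmc2.

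The rest of the pathway was read through 6 lists with 96 genes, of which 74 passed the count filter. With the PGR vector averaged over the sexes 0 of the 74 passed in edgeR, 16 had an unadjusted p under 0.05 (14.8% of all genes did), and the median log2 fold change of the 74 was 0.03 against 0.00 over all genes. In females and in males 0 passed and 7 had an unadjusted p under 0.05, where 10.9% and 7.48% of all genes did. The lists are given in order from receptors to targets, with the 2 genes of smallest p averaged over the sexes named for each.

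Among other steroid and membrane progestin receptors, 6 of 9 were tested, with a median of 0.09 averaged over the sexes and 4 above 0. Paqr9 and Paqr8, of the family of membrane receptors for progestins and adiponectin, were at 0.24 (SE 0.08, edgeR adjusted p = 0.200) and 0.27 (SE 0.21). Paqr9 had 35.6 ± 2.58 CPM (SD, n = 7) under the control vector and 42.0 ± 5.14 (n = 6) under the PGR vector.

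The receptor chaperones and immunophilins, which hold unliganded receptors ready for hormone, lay together below 0. All 14 were tested and 0 passed, with 14 of 14 below 0 averaged over the sexes, a median of -0.25 and 8 at an unadjusted p under 0.05, where 14.8% of all genes lay. In females 14 of 14 and in males 13 of 14 were below 0, and with total counts 13 and 12 of 14. The male median was -0.21, and without Con_M 1 it was -0.13, with 11 of 14 below 0. Averaged over the sexes all 14 were also below 0 with DESeq2 size factors (median -0.25) and with total counts (median -0.21). Fkbp4, an immunophilin that assists the progesterone and other receptors, averaged 33.5 ± 2.61 CPM in Con_F (SD, n = 4) against 24.9 ± 3.99 in PGR_F (n = 3). In males it averaged 32.6 ± 2.70 with the control vector and 27.3 ± 3.28 with the PGR vector (n = 3 each). Its averaged log2 fold change was -0.34 (SE 0.08), with the smallest adjusted p of the 74 genes in any comparison (edgeR adjusted p = 0.106). Its highest value under the PGR vector, 29.9 CPM, lay under the lowest control value, 30.9 CPM. The share of all genes separated in this way was not counted. Fkbp4 was named for its small p, so the separation is not added evidence. Stip1, which links Hsp70 to Hsp90, was at -0.56 (SE 0.14, edgeR adjusted p = 0.117), from 20.8 ± 4.40 CPM (n = 7) to 14.1 ± 2.08 (n = 6). In the averaged comparison without Con_F 4, the count over all genes was 338 in place of 1. Stip1 then passed (edgeR adjusted p = 0.0387), and 14 of 14 remained below 0. Leaving out any other library in that comparison gave 0 of the listed genes passed and 13 or 14 of 14 below 0. Cardiomyocyte markers lay the same way in the averaged comparison, with 8 of 10 below 0 (median -0.13) and 2 at an unadjusted p under 0.05. Their summed level was 82132 to 93775 CPM in Con_F and 77844 to 84951 in PGR_F, and 84369 to 92938 in Con_M and 83415 to 97287 in PGR_M. Endothelial markers were below 0 in females, 8 of 8 with a median of -0.24, and above 0 in males, 8 of 8 with a median of 0.26. Their summed level was 44.0 to 55.2 CPM in Con_F and 31.4 to 55.0 in PGR_F, and 23.4 to 42.4 in Con_M and 26.999 to 48.2 in PGR_M. The part of cell composition in the chaperone values was not tested. The direction of the list was known from earlier results of these data, and the averaged values share their libraries with those in each sex.

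Of the genes of steroid synthesis and ligand metabolism, 12 of 24 were tested, with a median of 0.04 and 9 above 0. H6pd, which supplies the cofactor for glucocorticoid reactivation in the endoplasmic reticulum, was at 0.20 (SE 0.07, edgeR adjusted p = 0.224), and Hsd17b11, a lipid droplet dehydrogenase, at 0.65 (SE 0.25, edgeR adjusted p = 0.277). Genes of adrenal steroid synthesis were not alike: Cyp11b1, Cyp11b2 and Cyp21a1 had 0 counts in all libraries, and Cyp11a1 had 8 in total. Star, Fdx1 and Fdxr averaged 3.08, 31.65 and 3.74 CPM under the control vector (n = 7). Under the PGR vector they averaged 3.13, 33.1 and 3.795 CPM (n = 6). Hsd11b2, which shields the mineralocorticoid receptor from corticosterone in kidney, had 9 counts in all 13 libraries. Hsd11b1, which regenerates corticosterone, had 0.854 ± 0.189 CPM (SD, n = 7) under the control vector and 1.07 ± 0.361 (n = 6) under the PGR vector. These genes were named after their counts were seen.

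The partners of Pgrmc1 and Pgrmc2 in heme and sterol metabolism were all tested, 13 of 13, with a median of 0.10 and 9 above 0. Insig1, which retains the sterol sensor Scap in the endoplasmic reticulum, was at 0.39 (SE 0.12, edgeR adjusted p = 0.158), from 3.57 ± 0.685 CPM (SD, n = 7) to 4.70 ± 0.607 (n = 6). Cyp51, the sterol demethylase, was at 0.18 (SE 0.09, edgeR adjusted p = 0.386).

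Targets of the receptors did not pass in either list. Of the corticosteroid target genes 19 of 20 were tested, with 10 above 0, 9 below 0 and a median of 0.02 averaged over the sexes. In females 6 were above 0 and 13 below (median -0.09), and in males 13 above and 6 below (median 0.16). Without Con_F 1 the female split was 13 above and 6 below (median 0.04). Bcl6, a transcriptional repressor, was at -0.46 (SE 0.18, edgeR adjusted p = 0.279), and Pdk4, the kinase that inhibits pyruvate dehydrogenase, at 1.496 (SE 0.57, edgeR adjusted p = 0.280). Pdk4 ranged from 23.2 to 283 CPM under the control vector and from 141 to 598 under the PGR vector, so the groups overlapped over a wide span. Of the estrogen and progesterone target genes 11 of 17 were tested, with 9 above 0, 2 below 0 and a median of 0.19. Greb1, a cofactor of the estrogen receptor, was at 0.69 (SE 0.23, edgeR adjusted p = 0.208), from 4.10 ± 1.02 CPM (SD, n = 7) to 6.71 ± 2.46 (n = 6), and Stat5a at 0.19 (SE 0.10, edgeR adjusted p = 0.397).

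**Figure D4:**
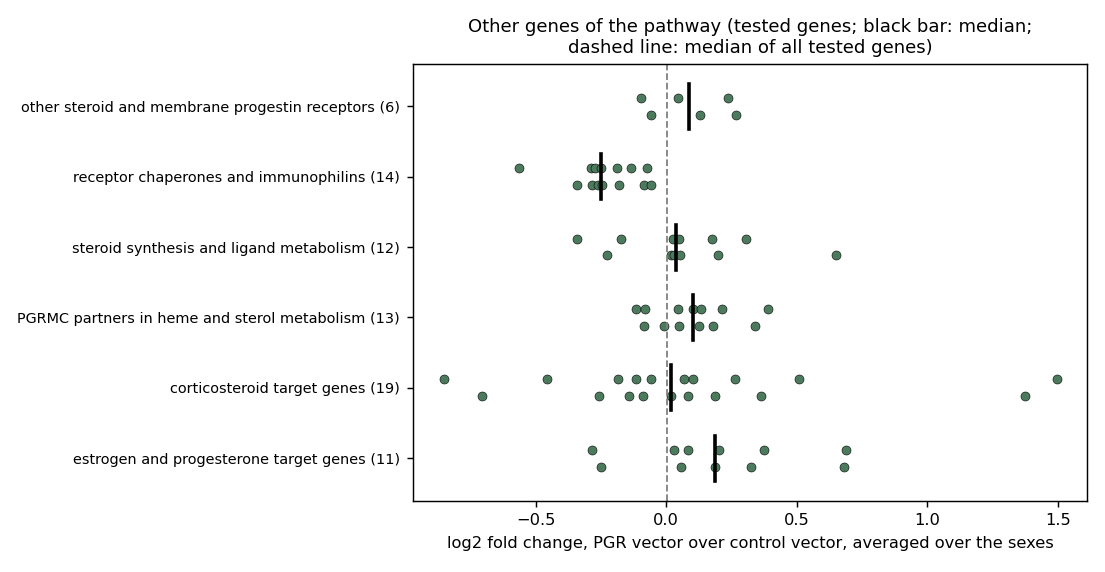
Averaged log2 fold change, PGR vector over control vector, of each tested gene of the 6 pathway lists (points), with the list median (black bar) and the median of all tested genes (dashed line). The 14 chaperones and immunophilins all lie below 0, and the other 5 medians lie between 0.02 and 0.19.

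How the 5 fitted genes varied together was read from their log2 CPM over the 13 libraries. Of 10 pairs, Nr3c1 and Pgrmc2 gave the largest correlation, Pearson r = 0.716 (permutation p = 0.00376, adjusted permutation p = 0.0376 over the 10 pairs) and Spearman rho = 0.665 (permutation p = 0.0165, adjusted permutation p = 0.165). Within groups r was 0.772. How often other pairs of genes reach such an r over these libraries, which share library size and cell composition, was not counted. Without Con_F 1 and PGR_M 1, the libraries furthest from the median of Nr3c1, r was 0.441. Leaving out the extremes of a gene can lower r by narrowing its range. How far the relation rests on those libraries is therefore not resolved. The other 9 pairs had adjusted permutation p of at least 0.888, among them the 2 corticosteroid receptors (r = -0.0763) and the 2 membrane components (r = 0.0805).

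**Figure D5:**
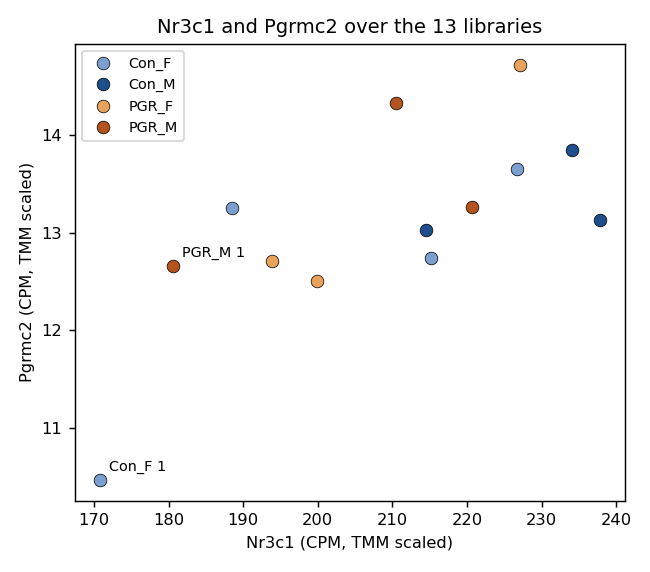
Pgrmc2 against Nr3c1, both in CPM, with 1 point per library coloured by group. Con_F 1, at 171 and 10.5 CPM, stands apart at the lower left, and the other 12 libraries lie between 12.5 and 14.7 CPM of Pgrmc2.

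The genes most like each member across the libraries were taken by the highest Pearson correlation of log2 CPM over the 13 libraries, among 9922 or 9923 protein-coding genes. For Esr1 they were Tcirg1 (r = 0.894), Inpp5d (0.884) and Frmd4b (0.884). For Nr3c1 they were Rap1a (0.961), Galnt1 (0.901) and Commd3 (0.898), and for Nr3c2 Zfp521 (0.899), Tox (0.835) and Jazf1 (0.821). For Pgrmc1 they were Rtn2 (0.941), Cst3 (0.924) and Angptl2 (0.832), and for Pgrmc2 Rtn4 (0.934), Etaa1 (0.922) and Ube2e3 (0.908). Each gene was the best of 9922 or more over 13 points that share library size and cell composition, so these values are a description only. Taken within groups all 15 correlations stayed between 0.802 and 0.959.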

How the data were processed

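RNA was measured in 13 libraries of sorted nuclei from mouse ventricles. The values deposited by the authors are raw counts for each gene. Per the labels' protocols, RNA was extracted with TRIzol and columns and depleted of ribosomal RNA before a directional library preparation. Tools named in the submitters' processing notes are featureCounts 1.5.0 and STAR 2.5.3a, and builds are GRCm38 and mm10, without roles. The sources used here do not say how reads over overlapping genes were assigned. Per the file headers each gene's length is its whole interval, so introns are included.

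Counts of 16125 genes kept by filterByExpr (minimum count 10) were scaled with TMM and fitted in edgeR 4.0.16 (R 4.3.3) with 4 group means. For 6 contrasts the quasi-likelihood p was adjusted over all tested genes (Benjamini-Hochberg), with a threshold of 0.05. Fold changes set the PGR vector over the control vector, or females over males, on the log2 scale. The standard error of one is its size divided by the square root of F. Pgr and Esr2, under the filter, were compared in CPM by exact permutation of the vector labels within sex. Correlations across libraries, with 100000 permutations, were made on log2 CPM (prior count 2). The tests were tested on simulated data. Limma 3.58.1 and DESeq2 1.42.0 served as alternatives. Nothing in the labels says that libraries come from separate litters, so p-values measure the spread between these pools.

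The members and lists were chosen with earlier results of these data known. The text names the 7 members, Pcm1, Xist and Uty. Of each pathway list it names genes past the threshold, or else the 2 with the smallest p averaged over the sexes. The adrenal steroid genes, Hsd11b1 and Hsd11b2 were named outside this rule, after their counts were seen. For each fitted member it names the 3 protein-coding genes of highest correlation with a mean log2 CPM of at least 1. The lists were other steroid and membrane progestin receptors, receptor chaperones and immunophilins, steroid synthesis and ligand metabolism, Pgrmc partners in heme and sterol metabolism, corticosteroid target genes, estrogen and progesterone target genes, and markers of cardiomyocytes, fibroblasts, endothelium, smooth muscle and pericytes (30.7 to 53.6 CPM summed), macrophages and lymphocytes. Same-numbered libraries did not deviate together: of 16 pairs of groups' libraries 3 had a correlation of deviations over 0.1, so the numbers were not used to pair libraries. No 2 libraries of a group agreed within counting error. Some items are not reported here.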

Additional observations from a re-analysis of the deposited data

Results flagged for a closer look

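Esr1 in Con_F 2 stood at 2.52 CPM, and its gap to the nearest Con_F library was 0.877 of the range of the group, above the limit of 0.829 for 4 libraries. Esr2 in Con_F 3 stood at 0.287 CPM, with a gap of 0.864 of the range, and rests on 12 counts. These were 2 of 7 groups checked, where chance gives about 1 in 20.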

How the results depend on the processing

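None of the 5 fitted members passed under any of the 20 or 21 alternatives run for each comparison. The smallest edgeR adjusted p among them was 0.110, for averaged Pgrmc1 without Con_F 4. Pgrmc1 kept its sign in the 3 vector comparisons under every alternative, from 0.26 to 0.46 averaged, 0.32 to 0.68 in females and 0.062 to 0.44 in males. The male value was 0.062 without PGR_M 2, 0.12 without Con_M 2, 0.37 without PGR_M 1 and 0.44 without Con_M 3. Other members turned sign in the following cases, with log2 fold changes given. With total counts in place of TMM, averaged Esr1 was at 0.019 and Pgrmc2 between the sexes under the PGR vector at 0.039. Leaving out 1 library, lowest to highest, gave -0.26 to 0.031 for Esr1 and -0.029 to 0.11 for Nr3c1 in females. In males it gave -0.10 to 0.21 for Esr1, -0.050 to 0.16 for Nr3c2 and -0.037 to 0.049 for Pgrmc2. Averaged Esr1 ran from -0.12 to 0.059, and the sex difference in the vector effect on Pgrmc2 from -0.0061 to 0.12. Between the sexes it gave -0.13 to 0.089 for Nr3c2 and -0.18 to 0.22 for Pgrmc1 under the control vector, and -0.059 to 0.070 for Nr3c1 and -0.10 to 0.031 for Pgrmc2 under the PGR vector.

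Leaving out 1 library gave averaged Pgr differences of 0.0380 to 0.0726 CPM (unadjusted exact permutation p from 0.00286 to 0.0514). In females they were 0.0438 to 0.0793 CPM (exact permutation p at least 0.0667, where the smaller groups allow no less). In males they were 0.0204 to 0.0895 CPM. For Esr2 the ranges were -0.0574 to 0.0227 in females, turning without Con_F 3, and -0.0558 to 0.0326 in males, turning without Con_M 3 or PGR_M 1 (0.0195). Averaged Esr2 ran from -0.0450 to -1.71e-05, reaching the latter without Con_F 3. Fitted in edgeR with no filter, Pgr was at a log2 fold change of 2.38 averaged (adjusted p = 0.145) and 1.79 in females (adjusted p = 0.730).

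Counts of genes passed over all 16125 moved more. In the order females, males, averaged, difference between the sexes, control sexes and PGR sexes, no filter gave 25, 12, 146, 1, 131 and 51 genes and DESeq2 gave 81, 29, 334, 1, 224 and 80. Total counts gave 5 averaged and limma-voom 2. Fitting only the groups compared gave 1 in males, 17 between control sexes and 56 between PGR sexes. Leaving out 1 library gave 0 to 20, 0 to 3, 1 to 338, 0 to 0, 14 to 99 and 10 to 44, and the cause was not tested. The highest averaged counts came without Con_F 4 (338), PGR_F 4 (34) and PGR_M 2 (4).

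With a replicate block, 35 genes passed between PGR sexes and 25 between control sexes, Nr3c2 and Pgrmc1 between control sexes were at 0.029 and -0.13, Pgrmc2 between PGR sexes at 0.018, and averaged Pgrmc1 at 0.34. Correlations of deviations between same-numbered libraries ran from -0.245 to 0.247, and 5 of 13 libraries correlated best with their own number. Depth limits Pgr and Esr2, with 0 to 8 and 0 to 12 counts a library, where a difference of a few counts was not detectable. Intervals and floors on counts cover counting error only.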
